A study of Mus musculus with 10 samples.

Results

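The response described here is the change that mouse embryonic fibroblasts of both study lines had in common after a mild heat treatment, the preshock. All 10 arrays of the series entered the comparison: 5 arrays of preshocked cells were set against 5 arrays of unheated cells, as 5 pairs of consecutive array numbers (5/6, 11/12, 13/14, 31/32 and 43/44, the odd number preshocked). Pairs 5/6, 11/12 and 13/14 carry cells of a line labelled hsp70 (-/-) or knockout, called KO-labelled here, and pairs 31/32 and 43/44 carry cells of a line labelled (+/+) or rescue, called rescue-labelled here. Preshocked cells were grown for 20 hours after plating, held at 43 °C for 30 minutes in a water bath and harvested 3 hours later, and unheated cells were harvested at 23 hours. Cells of every group grew in 96-well plates under a gas permeable cover in serum-containing medium with an antibiotic, and lysates of 144 wells were pooled for each array. How the rescue line regained the gene, whether either line is 1 clone, and whether pairs are separate cultures is not given in the labels, so each p-value measures the spread between these pairs, which may be technical.

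Heat unfolds proteins, and cells answer with the heat shock response: heat shock factor 1 is released from chaperones, forms trimers and binds heat shock elements, repeats of the unit nGAAn in alternating orientation, upstream of chaperone genes. The products refold or hold unfolded proteins, with Hsp70 at the centre, J-domain proteins that bring it clients, exchange factors of the BAG and Hsp110 families, Hsp90 and small heat shock proteins. In fibroblasts a mild first heating is known to raise survival of a later one, which is called thermotolerance, and heat also activates stress kinases and immediate early genes.

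Each array gives 1 deposited intensity for each of 45101 probe sets. Array medians lay between 50.7 and 73.7 in 8 arrays and stood at 107.0 and 100.4 in both arrays of pair 5/6, so the log2 values were quantile normalized before testing. Control probe sets changed by less than their spread between pairs: the log2 ratio of 3' to 5' signal changed by -0.0059 ± 0.0543 for Gapdh and by -0.0031 ± 0.0464 for Actb (SD, n = 5 pairs, exact sign-flip permutation p = 0.812 and 1, two-sided, of a smallest possible 0.063). All 10 fibroblast markers were on the arrays, Vim was the brightest with a mean intensity of 36940, and their summed intensity was 71970 to 119600 in preshocked and 73050 to 119200 in unheated arrays, while Thy1, Pdgfra and Dcn reached at most 122, 397 and 327 in any array. Markers of epithelial, leukocyte, endothelial, muscle and adipocyte cells summed to at most 1951 in any array. Neural markers summed to 3811 to 4941 in preshocked and 3341 to 4072 in unheated arrays, with Sox2 at 1660 to 3920 and Nes at 658 to 1630, and their part in the results was not tested. In bulk RNA such as this, a change in the number of cells of a type and a change in RNA per cell cannot be told apart.

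The gene that the line labels name was examined first. Hspa1b, an inducible Hsp70 gene (gene 15511, chr17:34956429-34959238 of GRCm38.p6), rose in every pair, the 3 KO-labelled pairs included. Its deposited intensity was 212, 477, 220.4, 675 and 465 in the unheated arrays of pairs 5/6, 11/12, 13/14, 31/32 and 43/44, an order kept for all array values, and 19912, 30652, 31556, 37506 and 24677 in the preshocked arrays. No preshocked array came near an unheated one, and the KO-labelled arrays reached the level of the rescue-labelled arrays. The common change was 6.32 ± 0.32 log2 (SE here and throughout, adjusted p = 0.00105), which is 80.1-fold, and the other 2 probe sets of the gene gave 7.87 ± 0.40 and 7.29 ± 0.32. The preshocked values lie near the top of the intensity scale, and saturation was not tested, so the fold is that of the deposited values after normalization. Fitted over all probe sets in place of 1 per gene, the 3 calls (adjusted p = 0.0158 to 0.0174) ended without any 1 of the 5 pairs (0.0869 to 0.174) and with both lines weighted equally (0.0543 to 0.0747), whereas in the fit over genes the call of Hspa1b was kept under each of these. The probe set of the neighbouring gene Hspa1a stayed between 3.49 and 25.8 in all 10 arrays and changed by -0.15 ± 0.51. Where these probe sets lie relative to a deletion was not tested, and since the transcript rose in arrays labelled knockout, the line names are used as labels only.

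Across the genome the shared response was broad and mostly small. Of 10916 genes tested, limma with pair as a block called 765 as higher (7.01%) and 1518 as lower (13.9%), 20.9% in all, at an adjusted p under 0.05. The median change of a called gene was 0.49 log2 upward and -0.46 downward, and 138 genes rose and 110 fell at least 2-fold. Of the 2283 called genes, 2261 had the same sign in all 5 pairs, a count that calling on these same pairs favours. Of all genes tested, 12.6% were higher and 22.1% lower in all 5 pairs. In 244 genes called higher and 404 called lower the arrays of the treatments did not overlap, which was so for 6.23% of all genes tested. Without the pair block, with line as a covariate instead, 257 genes were called higher and 425 lower. The counts were 389 and 774 without pair 11/12, 471 and 884 without pair 31/32, 483 and 1006 without pair 43/44, and 516 and 939 without pair 13/14. Called both with all pairs and without each pair in turn were 346 genes as higher and 655 as lower. Several probe sets were present for 478 of the genes called higher and 994 of those called lower. In 125 and 387 of these at least 1 probe set had the opposite sign. With the mean of all probe sets, 2226 of the 2283 called genes were tested and 1052 were called, in either direction.

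**Figure D1:**
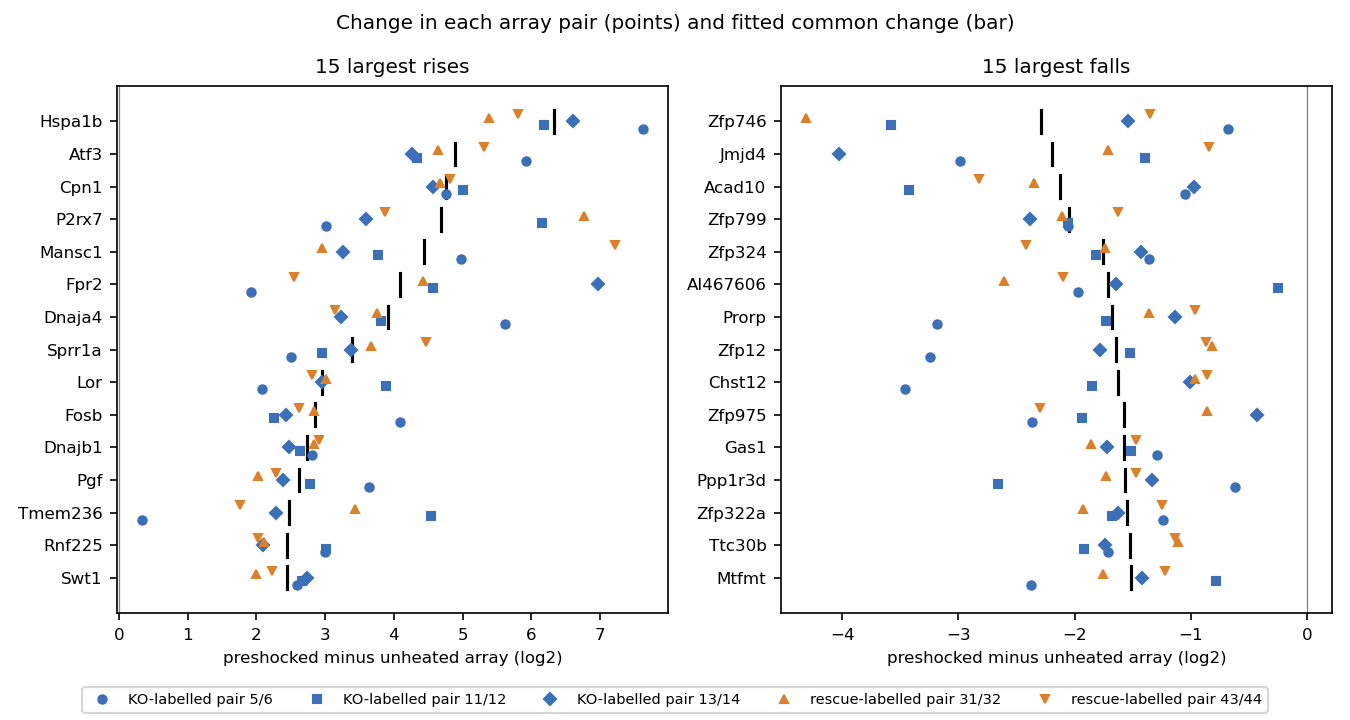
Change of the 15 called genes with the largest rise (left) and the 15 with the largest fall (right), preshocked minus unheated array on the log2 scale, 1 point per array pair (blue KO-labelled, orange rescue-labelled) with a black bar at the fitted common change. The 5 points of Dnajb1 lie close together while those of Fpr2 and Zfp746 spread widely. Blue and orange points lie apart in some rows, Swt1 and Ttc30b among them, with the rescue-labelled changes nearer to 0 in both.

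Hspa1b had the largest rise of all called genes, and its relatives and partners are described next. Of the 10 Hsp70 and Hsp110 genes tested, 4 rose and 1 fell, with a median of 0.21 log2 against -0.038 over all genes tested. Here and in the lists below, the counts stand beside 7.01% called higher and 13.9% called lower of all genes tested. Hsph1, an Hsp110 exchange factor, rose by 1.98 ± 0.16 log2 (adjusted p = 0.00252), Hspa1l, a relative of Hspa1b in the same gene cluster, by 0.72 ± 0.15 and Hspa4l, an Hsp110 protein, by 0.26 ± 0.05. Hspa14 fell (-0.26 ± 0.05), with 1 of its 3 probe sets of the opposite sign. Intensities of Hsph1 were 3893, 5848, 6917, 5621 and 4911 in unheated and 16522, 20193, 24005, 26241 and 24910 in preshocked arrays. Each preshocked array of Hsph1 stood above all unheated arrays. The constitutive Hspa8, the most abundant cytosolic Hsp70, stood at 0.14 ± 0.07 (adjusted p = 0.22) from unheated intensities of 18539 to 44094, near the top of the scale. With the mean of all its probe sets Hspa8 was called higher (0.57, adjusted p = 0.0252). Hspa4 (-0.03 ± 0.07) and Hspa13 (-0.02 ± 0.04) were not called. In the fits without pair 11/12, 13/14, 31/32 or 43/44, 2 members were called, Hspa1b and Hsph1, and Hspa1l, Hspa4l and Hspa14 were not.

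Among 24 J-domain cochaperones, BAG factors and other Hsp70 regulators, 8 rose and 1 fell (median 0.063). The deposited intensity of Dnajb1, which delivers clients to Hsp70 and stimulates its ATPase, was 2805, 3294, 4158, 3261 and 2521 in unheated and 14990, 20832, 30899, 29034 and 18969 in preshocked arrays. The groups did not overlap, and the 5 pair differences of Dnajb1 fell within 2.48 to 2.91 log2, around a common change of 2.73 ± 0.08 (adjusted p = 0.000198). Dnaja4, another J-domain protein, rose from a low level: its intensity was 51.6, 147, 148, 105 and 156 in unheated and 1474, 1888, 1524, 1598 and 1454 in preshocked arrays. Its change of 3.91 ± 0.37 (adjusted p = 0.00348) included 5.62 in pair 5/6, whose unheated array was the lowest, against 3.14 to 3.81 in the others. Dnajb4 rose by 2.21 ± 0.10 and Bag3, which links Hsp70 to small heat shock proteins and selective autophagy, by 1.68 ± 0.08 (adjusted p = 0.000883 for both). Smaller rises were found for Dnajb2 (0.63 ± 0.16), Dnaja1 (0.39 ± 0.07), Dnajb6, an aggregation inhibitor (0.30 ± 0.04), and St13, an Hsp70-interacting protein (0.28 ± 0.05). Bag4 fell (-0.57 ± 0.10). Dnaja4, Dnajb1, Dnajb4, Bag3, Dnajb6 and Bag4 stayed called without each pair in turn, and the number called higher was 5 without pair 11/12 or 43/44, where Dnajb2, Dnaja1 and St13 were not called. Dnaja2 (-0.09 ± 0.05), Bag1 (0.08 ± 0.07) and Stub1, a chaperone-bound ubiquitin ligase (-0.05 ± 0.07), were not called.

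Small heat shock proteins, which hold unfolded proteins without using ATP, had 4 of 5 tested members higher and a median of 0.81. Hspb1, which encodes Hsp27 in its human form and Hsp25 in mouse, had deposited intensities of 4139, 6695, 10444, 7545 and 9354 unheated and 17004, 23888, 38110, 35466 and 28104 preshocked. It rose by 1.83 ± 0.15 (adjusted p = 0.00265), Hspb8, the partner of Bag3, by 1.23 ± 0.06 (adjusted p = 0.00105), Cryab, alpha B-crystallin, by 0.81 ± 0.09, and Hspb2, the neighbour of Cryab, by 0.57 ± 0.11. Hspb6 stood at 0.01 ± 0.07. Hspb8 and Cryab each had 1 of 3 probe sets of the opposite sign. Without pair 5/6 or 13/14 the number called was 3, without Hspb2. Of 13 tested genes of Hsp90 and its cochaperones 5 rose by small amounts and 0 fell (median 0.10): Chordc1 by 0.57 ± 0.08, Ahsa2 by 0.40 ± 0.06, Ahsa1, which stimulates the Hsp90 ATPase, by 0.39 ± 0.05, the inducible Hsp90aa1 by 0.33 ± 0.06, with 1 of 5 probe sets opposite, and Stip1, the Hop adaptor between Hsp70 and Hsp90, by 0.31 ± 0.07. Without pair 5/6, 11/12, 13/14 or 43/44 the Hsp90 count was 3, Chordc1, Ahsa1 and Ahsa2, and 1 member was called without the pair block. Stip1 was not called without any 1 of the pairs. Arrays of both treatments overlapped for Chordc1, Ahsa1, Ahsa2 and Hsp90aa1, so these rises are seen within pairs.

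Zfand2a, an arsenite- and heat-inducible zinc finger gene whose product binds the proteasome, gave a very even response. Its intensity was 1786, 1677, 1545, 1602 and 1981 in unheated and 8091, 8939, 8584, 8930 and 10291 in preshocked arrays. The 5 pair differences were 2.34, 2.37, 2.30, 2.34 and 2.36 log2, and the fitted change was 2.35 ± 0.04 (adjusted p = 2.47e-05). In the list of 13 ubiquitin, Zfand and aggregate clearance genes, Ubqln1 (0.48 ± 0.05) and Zfand5 (0.25 ± 0.07) also rose, 0 fell, and the median was 0.10. With arrays centred on the median, 6 members of this list were called higher and the list median was 0.22. Ubqln1 and Zfand5 had 1 of 3 and 1 of 7 probe sets opposite, and Zfand5 was not called without any 1 of the pairs. Sqstm1, the autophagy receptor p62, stood at 0.21 ± 0.06 (adjusted p = 0.0525).

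**Figure D2:**
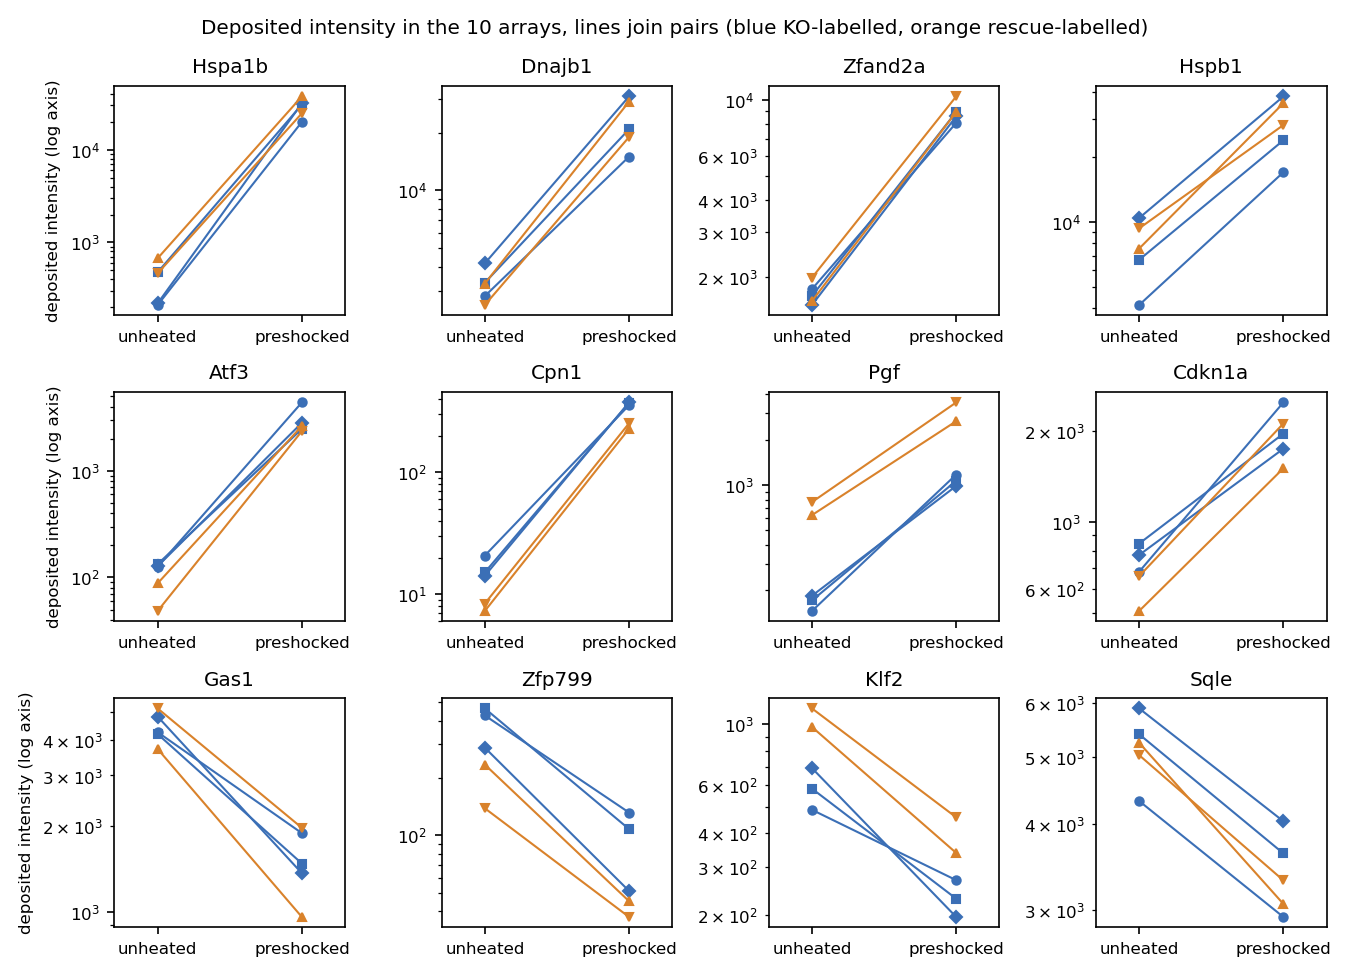
Deposited intensity (log axis, before quantile normalization) of 12 genes in the 10 arrays, each line joining the unheated and the preshocked array of 1 pair, blue for KO-labelled and orange for rescue-labelled. Zfand2a shows 5 nearly parallel lines, Hspa1b and Cpn1 start low and end high in all pairs, and Pgf starts higher in the rescue-labelled arrays but rises in both lines.

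Heat shock elements were looked for in the RefSeq windows of 250 bases before to 50 bases after each gene's start (GRCm38.p6), since these chaperone genes moved together. A window was counted where it held 3 alternating units (GAA, NN, TTC, NN and GAA in a row, or TTC, NN, GAA, NN and TTC), or the shorter 2 units, GAANNTTC or TTCNNGAA, of which each 3-unit match contains 2. Both searches cover both strands. In the 7 lists of cytosolic and mitochondrial chaperones and aggregate clearance, 21 of the 25 genes called higher had a window, and 12 of these (57.1%) held the 2 units, against 12 of 49 genes not called (24.5%) and 0 of 3 called lower. The 2 units stand in 15.1% of all RefSeq windows of this length and the 3 units in 0.603%. The following stretches, all from before the start and shown because they belong to the genes of these lists with the largest rises and to the 2 genes with 3 units before the start, carry the matches in capitals, 5′ to 3′ on the gene's strand:
Hspa1b, chr17:34959305-34959372, minus strand: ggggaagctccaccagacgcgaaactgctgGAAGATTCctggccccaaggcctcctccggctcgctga
Dnaja4, chr9:54699439-54699544, plus strand: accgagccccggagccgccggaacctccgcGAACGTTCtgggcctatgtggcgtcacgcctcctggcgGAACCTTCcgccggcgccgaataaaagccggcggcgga
Zfand2a, chr5:139484650-139484717, minus strand: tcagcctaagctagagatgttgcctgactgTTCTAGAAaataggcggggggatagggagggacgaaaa
Dnajb4, chr3:152193846-152193889, minus strand: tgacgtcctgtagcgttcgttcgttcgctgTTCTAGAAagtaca
Hsph1, chr5:149636337-149636399, minus strand: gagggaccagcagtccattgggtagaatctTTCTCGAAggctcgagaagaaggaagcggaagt
Hspb1, chr5:135887772-135887859, plus strand: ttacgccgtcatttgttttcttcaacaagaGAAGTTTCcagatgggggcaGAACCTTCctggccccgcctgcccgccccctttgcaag
Dnajb6, chr5:29735822-29735894, plus strand: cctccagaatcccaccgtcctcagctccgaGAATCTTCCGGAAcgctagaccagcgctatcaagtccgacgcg
Hspe1, chr1:55088029-55088106, plus strand: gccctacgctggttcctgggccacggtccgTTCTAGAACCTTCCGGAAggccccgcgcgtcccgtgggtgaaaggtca
The first match began 104 bases before the start in Hspa1b, 90 in Dnaja4, 196 in Zfand2a, 14 in Dnajb4, 33 in Hsph1, 117 in Hspb1 and 89 in Hspe1. Hspe1 held the longest run of units and rose by 0.21 ± 0.05 log2, whereas Dnaja4 held 2 separate 2-unit matches and rose by 3.91 ± 0.37. The windows of Dnajb1, Ahsa1 and Stip1 held neither form. Bag3, Hspb8 and Chordc1 held the 2 units in the whole window of 300 bases but not wholly before the start. Hsph1 and Chordc1 also held the 3 units in the whole window, again not wholly before the start. In whole windows the 3 units were found in 4 of the 21 genes called higher (19%), 2 of 49 not called (4.08%) and 0 of 3 called lower.

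The same elements were counted over all called genes. The 3 units were found in 0.982% of 611 genes called higher that had a window (exact Clopper-Pearson 95% interval 0.361 to 2.13%), in 0.482% of 1246 called lower (0.177 to 1.05%) and in 0.551% of 8897 tested. The 2 units were found in 13.6%, 12.8% and 13.7%, and in 17.1% of the 105 genes with a window that rose at least 2-fold (10.5 to 25.7%). Sites of AP-1, the dimer of Fos and Jun proteins (TGANTCA, which reads the same on both strands), stood in 8.67% of genes called higher (6.57 to 11.2%), 4.98% of genes called lower (3.84 to 6.33%) and 6.10% of those tested, and in 11.4% of the 105 genes that rose at least 2-fold (6.05 to 19.1%). The cyclic AMP response element TGACGTCA stood in 3.60%, 4.01% and 3.77% of these groups and the serum response element in 1.47%, 2.09% and 1.65%. These shares are descriptions of letters in a window, with intervals for counting error only.

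Chaperonin and proteasome genes were not called after quantile normalization, while the mitochondrial and ER lists held calls both ways. Of all genes tested, 7.01% were called higher and 13.9% lower. Of 13 subunits of the chaperonin TRiC and prefoldin, which fold actin and tubulin, limma called 0 (0 at an unadjusted p under 0.05), with values between -0.066 and 0.120 log2. Of 31 proteasome subunits limma called 0 (2 at an unadjusted p under 0.05, both higher), with values between -0.095 and 0.187. These 2 results depend on the normalization. The chaperonin and proteasome medians were 0.022 and 0.029 here, but 0.164 and 0.175 with arrays centred on the median, against -0.015 over all genes. With the deposited scaling they were 0.108 and 0.119, against -0.071, and 2 proteasome genes were called higher. Among 13 mitochondrial chaperones and proteases, Hspe1, the partner of Hsp60, rose (0.21 ± 0.05), though its call was kept only without pair 5/6, and Clpx (-0.48 ± 0.07), Dnaja3 (-0.42 ± 0.06), Grpel2 (-0.37 ± 0.09) and Htra2 (-0.22 ± 0.06) fell, of which only Clpx and Dnaja3 were called without each pair in turn. Grpel2 and Htra2 were not called without any 1 of the pairs. Dnaja3 turned to 0.09 with the mean of its probe sets. Of 21 genes of ER chaperones and the unfolded protein response 3 rose and 1 fell. Dnajb9, an ER J-domain protein, rose most (1.20 ± 0.13, adjusted p = 0.00438), with Sdf2l1 (0.33 ± 0.06) and Dnajb11 (0.24 ± 0.05) behind it, while Hspa5, the ER Hsp70, stood at -0.02 ± 0.06. Sel1l fell (-0.34 ± 0.04), though 2 of its 5 probe sets had the opposite sign. The ER count of rises was 1 without pair 11/12 or 31/32 and 2 without pair 13/14.

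The second largest rise among called genes was that of Atf3, a stress-induced transcription factor of the ATF family. Its deposited intensity was 126, 133, 128, 88.0 and 48.4 in unheated and 4384, 2473, 2822, 2635 and 2358 in preshocked arrays. The groups did not overlap, and the change was 4.90 ± 0.27 log2 (adjusted p = 0.00111) or 29.8-fold. In the list of 22 genes of the integrated stress response, in which phosphorylated eIF2 slows translation and Atf4 protein drives its targets, 5 rose and 1 fell (median 0.073). These counts stand beside 7.01% called higher and 13.9% called lower of all genes tested. Ppp1r15a, or Gadd34, which returns eIF2 to its active form, rose by 1.50 ± 0.16 (adjusted p = 0.00389), its constitutive relative Ppp1r15b by 0.37 ± 0.05, the transcription factor Cebpb by 0.68 ± 0.08 and Chac1, which degrades glutathione, by 0.67 ± 0.18. Intensities of Atf4 itself were 6564, 6618, 9062, 6900 and 7127 in unheated and 5092, 4829, 6263, 4935 and 5690 in preshocked arrays. Atf4 was lower in each preshocked array than in its partner and fell (-0.50 ± 0.05, adjusted p = 0.00396), with 1 of 3 probe sets opposite. The 16 members that limma did not call lay between -0.14 and 0.64 log2. Among them were Asns (-0.03 ± 0.05), Ddit3 (-0.04 ± 0.19), Psat1 (-0.06 ± 0.05) and Trib3 (0.64 ± 0.21). Chac1 lost its call without any 1 of the pairs, and the other 4 rises and the fall of Atf4 stayed called.

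Immediate early genes are switched on within minutes by growth factors and stress, and the arrays show them 3 hours after heating. Of 12 AP-1 genes 6 rose and 2 fell (median 0.56), beside 7.01% called higher and 13.9% called lower of all genes tested. Fosb, a partner of Jun proteins, had intensities of 70.3, 85.8, 49.8, 50.2 and 65.2 unheated and 719, 349, 271, 407 and 478 preshocked. Its change was 2.85 ± 0.27 (adjusted p = 0.00348), with the largest difference, 4.08, in pair 5/6. Fos rose by 2.13 ± 0.51, Junb by 1.85 ± 0.17, the small Maf genes Maff and Mafk by 1.55 ± 0.16 and 1.10 ± 0.08, and Jund by 0.51 ± 0.11. Mafg (-0.38 ± 0.07) and Jdp2, a Jun-dimerizing repressor (-0.47 ± 0.11), fell. The 6 rises were 4 without pair 11/12 or 13/14, where Fos and Jund were not called, and Jdp2 was called only without pair 31/32. The list of 24 EGR, KLF, IER and NR4A genes had 11 members higher and 4 lower (median 0.54). Egr1 rose by 2.26 ± 0.33, the orphan nuclear receptors Nr4a2 and Nr4a1 by 1.80 ± 0.11 and 1.55 ± 0.13, Csrnp1 by 1.68 ± 0.25 and Klf6 by 1.44 ± 0.17.

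Other members of these families fell. Klf2, a Krüppel-like factor known from quiescent cells, had intensities of 486, 581, 691, 978 and 1143 unheated and 269, 230.0, 197, 338 and 457 preshocked. Every pair was lower after preshock, from -0.93 to -1.64 log2, and Klf2 fell with a common change of -1.29 ± 0.10 (adjusted p = 0.00252), though the normalized values of the treatments overlapped. Egr3 (-1.03 ± 0.19) also fell, as did Ccn1 (-1.05 ± 0.15) and Ccn2 (-0.58 ± 0.06), secreted matrix proteins and known targets of SRF and YAP. Egr3 was not called without pair 11/12, 13/14, 31/32 or 43/44. In the list of 19 actin, SRF and YAP targets, Amotl2 rose (0.56 ± 0.06) and Ankrd1 fell (-0.79 ± 0.15), beside 7.01% called higher and 13.9% called lower of all genes tested. Ankrd1 was not called without pair 11/12, 31/32 or 43/44, and the list's median was -0.041.

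Of 16 feedback inhibitors of MAP kinases 7 rose and 1 fell (median 0.50), beside 7.01% called higher and 13.9% called lower of all genes tested. The phosphatase genes Dusp4 (1.71 ± 0.11), Dusp5 (1.53 ± 0.15), Dusp1 (1.13 ± 0.11), Dusp16 (0.93 ± 0.13), Dusp6 (0.76 ± 0.08) and Dusp14 (0.58 ± 0.10) and the Ras pathway inhibitor Spry4 (0.89 ± 0.13) were higher in every pair. Intensities of Dusp4, which acts on nuclear ERK, were 476, 620.5, 544, 497 and 535 in unheated and 1394, 1530, 1564, 1937 and 1980 in preshocked arrays. Spry1 fell (-0.43 ± 0.10), a call kept only without pair 13/14. Of 17 growth factors and secreted regulators 7 rose and 1 fell (median 0.54). Pgf, placental growth factor and a ligand of the receptor Flt1, had intensities of 146, 171, 184, 631 and 770.1 unheated and 1173, 1066, 985, 2651 and 3531 preshocked. In both treatments the rescue-labelled arrays of Pgf were the brighter ones, and the common change was 2.62 ± 0.24 (adjusted p = 0.00321). Vegfa rose by 1.43 ± 0.09, Bdnf by 1.15 ± 0.10, Fgf2 by 0.96 ± 0.17, the EGF receptor ligands Hbegf and Ereg by 0.95 ± 0.15 and 0.67 ± 0.06, and the chemokine Cxcl1 by 0.67 ± 0.09. Fgf7, a paracrine factor of fibroblasts, fell (-0.60 ± 0.06). Dusp14 was not called without pair 11/12, nor Fgf2 without pair 31/32.

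Growth arrest and apoptosis genes moved both ways. Of 13 p53 targets and growth arrest genes 5 rose and 3 fell (median 0.42), beside 7.01% called higher and 13.9% called lower of all genes tested. Cdkn1a, the inhibitor p21 of cyclin-dependent kinases, had intensities of 683, 846, 776, 506 and 660.3 unheated and 2479, 1954, 1742, 1501 and 2111 preshocked. It rose by 1.55 ± 0.14 (adjusted p = 0.00309). Those of Gadd45g, a stress sensor upstream of p38 and JNK, were 607, 585, 622, 772 and 1015 in unheated and 7213, 3089, 3158, 3079 and 2572 in preshocked arrays. Gadd45g rose by 2.39 ± 0.35, with pair 5/6 highest at 3.88 and pair 43/44 lowest at 1.39. Gadd45b (1.03 ± 0.11), Trp53inp1 (2.03 ± 0.50) and Mdm2, the ligase that degrades p53 (0.97 ± 0.17), were also higher, and Zmat3 (-0.37 ± 0.09), Phlda3 (-0.27 ± 0.06) and Sesn1 (-0.23 ± 0.06) were lower. The rises called without each pair in turn were those of Cdkn1a, Gadd45b and Gadd45g, the number being 3 without pair 11/12. Trp53inp1 was not called without any 1 of the pairs, nor Mdm2 without pair 11/12. The falls came to 0 without pair 5/6, 13/14, 31/32 or 43/44 and to 1, Zmat3, without pair 11/12.

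In the list of 19 apoptosis regulators 3 rose and 4 fell (median -0.044), beside 7.01% higher and 13.9% lower of all genes tested. Dedd2, a death effector domain protein, rose by 2.13 ± 0.20 (adjusted p = 0.00348), the BH3-only killer Bcl2l11, or Bim, by 1.70 ± 0.23, and Cflar, the caspase inhibitor FLIP, by 0.97 ± 0.10. Intensities of Dedd2 were 86.5, 84.5, 86.8, 87.2 and 133 in unheated and 420.3, 378, 316, 341 and 411 in preshocked arrays. Bid, a BH3-only protein cut by caspases, had intensities of 1180, 1555, 1608, 1588 and 1623 unheated and 557, 590.0, 818, 661 and 723 preshocked. For neither Dedd2 nor Bid did the arrays of the treatments overlap, and Bid fell (-1.13 ± 0.08, adjusted p = 0.00169). The survival gene Bcl2 (-0.58 ± 0.08), the inhibitor of apoptosis Birc2 (-0.60 ± 0.10) and the initiator caspase gene Casp9 (-0.64 ± 0.17) fell too. Casp9 was called only with all pairs or without pair 31/32, and without pair 11/12 the 4 falls were 2, Bid and Bcl2.

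**Figure D3:**
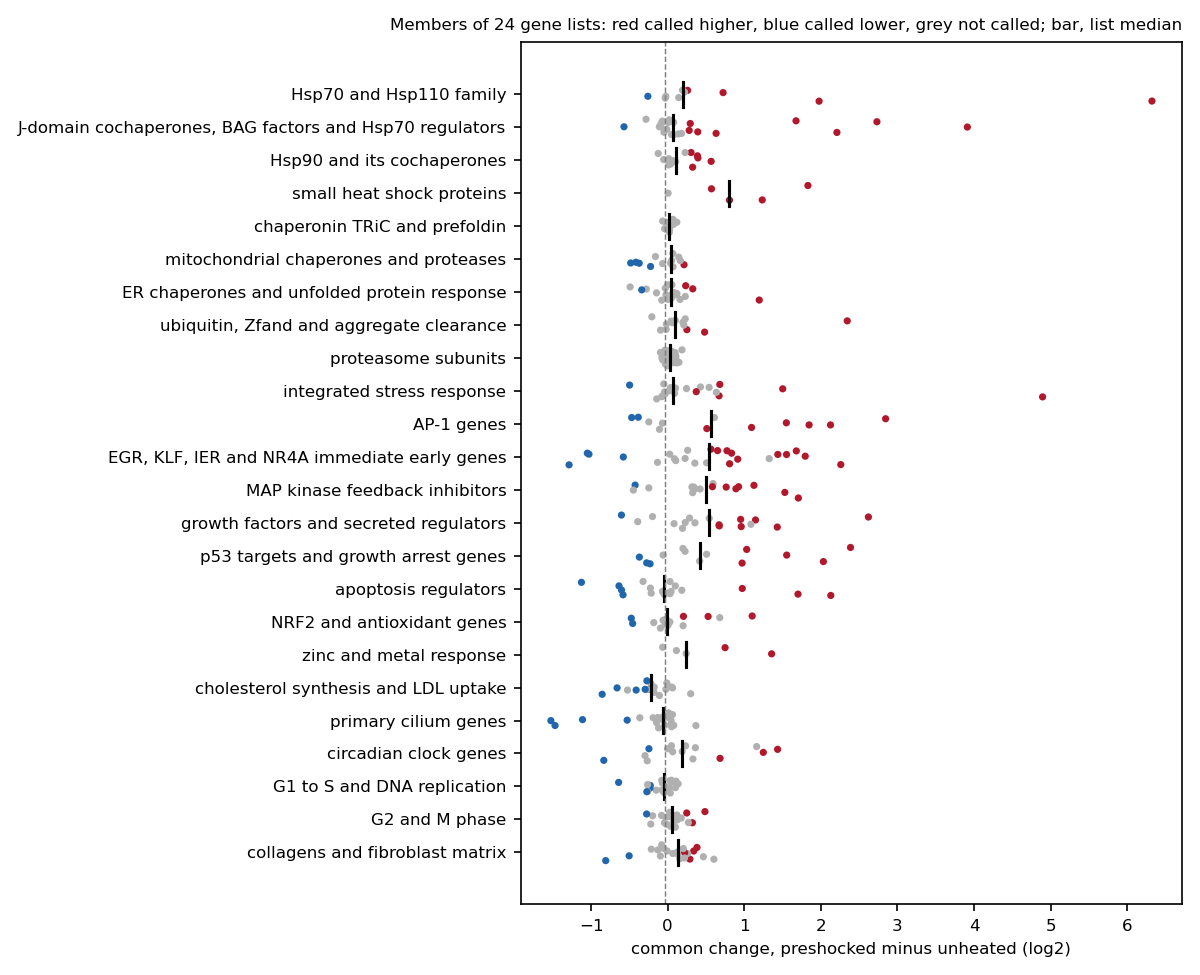
Common change (log2, preshocked minus unheated) of each tested member of 24 gene lists, red where called higher, blue where called lower and grey where not called, with a black bar at the list median and a dashed line at the median of all genes tested, -0.038. Red points spread far to the right in the Hsp70, cochaperone, small heat shock protein, AP-1 and immediate early lists, while the chaperonin and proteasome lists stay grey and close to 0.

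Several of the largest rises were in genes with no known part in protein folding and with low signal before heating. Cpn1, a carboxypeptidase subunit made by liver, had intensities of 20.8, 15.1, 14.2, 7.30 and 8.39 unheated and 355, 371, 374, 227 and 252 preshocked. Its change of 4.76 ± 0.08 (adjusted p = 2.1e-05) is set against unheated values near background. P2rx7, an ATP-gated ion channel, rose by 4.68 ± 0.62, Mansc1, a membrane protein, by 4.43 ± 0.65 and Fpr2, a formyl peptide receptor, by 4.09 ± 0.74. Intensities of Fpr2 were 119, 37.3, 5.16, 21.9 and 38.04 in unheated and 312, 709, 755, 579.7 and 267 in preshocked arrays. Normalized values of Fpr2 ranged from 2.71 to 6.17 log2 in unheated and from 8.09 to 9.68 in preshocked arrays, and its call was lost without pair 11/12 or 31/32. Sprr1a and Lor, cornified envelope proteins of skin, rose by 3.40 ± 0.28 and 2.95 ± 0.24, and with Krt10 (0.69 ± 0.09) made 3 of 4 tested genes of the cornified envelope and keratinocyte list, whose other 9 genes on the arrays were below the level tested. The 3 epithelial markers tested were not called (median -0.33). In Cpn1, P2rx7, Mansc1, Fpr2, Sprr1a and Tmem236 the unheated mean lay below 5.65 log2, the lowest mean that passed the filter, and the sizes of their changes depend on values near background.

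Among other rises, Swt1, Rnf225 and Sox9 had means above the lowest mean tested in both treatments. Swt1, the relative of a yeast RNA endonuclease, had intensities of 442, 460.0, 342, 548 and 403 unheated and 2270, 2846, 2411, 2195 and 1789 preshocked. Swt1 rose by 2.44 ± 0.13 (adjusted p = 0.00105) and Rnf225, a ring finger gene, by 2.45 ± 0.19. Tmem236 rose by 2.47 ± 0.60, a call lost without pair 11/12, 13/14, 31/32 or 43/44, with 0.34 in pair 5/6. Sox9, a transcription factor best known from cartilage, had intensities of 292, 353, 381, 383 and 218 unheated and 1195, 1300, 1239, 1445 and 1441 preshocked. Sox9 rose by 2.13 ± 0.15 (adjusted p = 0.00209), with which the summed cartilage and bone markers went from 349.5 to 725.8 in unheated to 1423 to 1603 in preshocked arrays. Sp7, the other tested marker of that list, stood at 0.28 ± 0.26. Mmp13, a collagenase, rose by 1.78 ± 0.07 from an unheated mean below the lowest mean tested, while Mmp11 (-0.76 ± 0.13), Timp3 (-0.38 ± 0.08) and Mmp14 (-0.19 ± 0.05) were lower. Of these falls 0 were called without pair 11/12 or 43/44 and 1 without pair 5/6, and Mmp14 was not called without any 1 of the pairs.

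Falls outnumbered rises, and few were large. Gas1, a growth arrest protein and Hedgehog co-receptor, had intensities of 4251, 4187, 4821, 3713 and 5148 unheated and 1885, 1476, 1365, 959 and 1968 preshocked. All 5 preshocked arrays lay well below the unheated ones, and Gas1 fell 2.97-fold (-1.57 ± 0.09 log2, adjusted p = 0.00123). Zfp799, a zinc finger gene, had intensities of 426, 463, 288, 235 and 139 unheated and 132, 108, 51.1, 45.2 and 37.3 preshocked. In every pair the preshocked array was the lower one, the change being -2.05 ± 0.11 (adjusted p = 0.00109). Zfp322a (-1.54 ± 0.12) and Mtfmt, a mitochondrial formyltransferase for the initiator tRNA (-1.51 ± 0.23), fell as well. Of the 15 largest falls, Zfp746 (-2.29 ± 0.58), Jmjd4 (-2.19 ± 0.48) and Acad10 (-2.12 ± 0.41) had the largest sizes, but their preshocked means lay below the lowest mean tested and their arrays overlapped. Zfp799, Zfp324, Gas1, Zfp322a, Ttc30b and Mtfmt stayed called without each pair in turn, which 13 of the 15 largest rises did.

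Genes of the primary cilium, the sensory organelle of quiescent fibroblasts, had 4 of 22 tested members lower and 0 higher by limma (1 higher at an unadjusted p under 0.05; median -0.066), a share of falls near the 13.9% of all genes tested. Ttc30b, a component of intraflagellar transport, fell (-1.53 ± 0.15, adjusted p = 0.00347), and so did its relative Ttc30a1 (-1.11 ± 0.22), a call lost without pair 5/6, 11/12 or 13/14, and Bbs10 (-1.47 ± 0.22) and Bbs12 (-0.53 ± 0.07), chaperonin-like proteins that assemble the BBSome. The preshocked means of Bbs10 and Ttc30a1 lay below the lowest mean tested. The 18 members not called lay between -0.36 and 0.37. Of 17 genes of cholesterol synthesis and LDL uptake 6 were lower and 0 higher by limma (1 higher at an unadjusted p under 0.05; median -0.22). Sqle, squalene epoxidase, had intensities of 4322, 5403, 5891, 5251 and 5038 unheated and 2932, 3626, 4038, 3063 and 3314 preshocked. Sqle fell (-0.66 ± 0.05, adjusted p = 0.00249) in all 5 pairs by like amounts. Also lower were Hmgcs1, the HMG-CoA synthase (-0.86 ± 0.09), the sterol carrier Stard4 (-0.41 ± 0.06), Insig1, which holds SREBP in the ER (-0.29 ± 0.05), Fdft1, squalene synthase (-0.27 ± 0.06), and Msmo1 (-0.25 ± 0.06). Hmgcs1, Sqle and Stard4 were called without each pair, and the count was 3 without pair 11/12 and 2 without the pair block.

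Metal and oxidative stress genes showed a few strong members. Slc30a1, the zinc exporter and a known target of the metal sensor Mtf1, had intensities of 358, 437, 379, 395 and 436 unheated and 1022, 882, 759, 1017 and 1168 preshocked. Slc30a1 rose by 1.36 ± 0.11 (adjusted p = 0.00255) and Mtf1 by 0.75 ± 0.11, while the metallothioneins Mt1 and Mt2 stood at 0.11 ± 0.09 and 0.24 ± 0.11 without being called. Of 16 genes of the NRF2 and antioxidant list 3 rose and 2 fell (median -0.0024), beside 7.01% and 13.9% of all genes tested. Hmox1, heme oxygenase, rose by 1.10 ± 0.09 (adjusted p = 0.00266), Srxn1 by 0.53 ± 0.09 and Me1 by 0.21 ± 0.05, whereas Gclc (-0.48 ± 0.06), needed for glutathione synthesis, and Nfe2l2, which encodes NRF2, fell. Me1 was not called without any 1 of the pairs. Nfe2l2 changed by -0.46 ± 0.07 on its brightest probe set and by 0.88 with the mean of both. In 14 genes of NF-kB feedback and cytokine signalling 3 rose and 3 fell: Socs3, an inhibitor of JAK kinases, rose by 1.49 ± 0.08 (adjusted p = 0.00109), Nfkbiz by 0.65 ± 0.12 and Cish by 0.46 ± 0.11, and Nfkbia (-0.29 ± 0.07), Nfkbie (-0.76 ± 0.14) and the adhesion gene Vcam1 (-0.58 ± 0.12) were lower. The 3 falls were 0 without pair 11/12 or 13/14 and 1 without pair 31/32, and the 3 rises were 1, Socs3, without pair 31/32.

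The clock and splicing lists each held calls both ways, beside 7.01% called higher and 13.9% called lower of all genes tested. Of 15 circadian clock genes, Bhlhe40 (1.44 ± 0.17), the repressor Nr1d1 or Rev-erb alpha (1.25 ± 0.14) and Ciart (0.68 ± 0.09) rose, and Per2 (-0.83 ± 0.14) and Arntl, which encodes Bmal1 (-0.24 ± 0.06), fell, with Arntl not called without pair 11/12, 13/14, 31/32 or 43/44. Per1 stood at 0.33 ± 0.12 and Clock at 0.07 ± 0.06. Among 14 cold-inducible RNA binders and splicing kinases, the kinases Clk1 and Clk4 rose by 0.93 ± 0.06 and 0.67 ± 0.12, and Clk2 (-0.73 ± 0.06), Srsf5 (-0.56 ± 0.06) and Srsf6 (-0.32 ± 0.06), genes of splicing kinases and SR proteins, fell. Intensities of Clk1 were 1033, 1736, 1868, 1592 and 1582 in unheated and 2044, 3067, 3630, 2917 and 3166 in preshocked arrays. The treatments did not overlap for Clk1, and Clk4 was not called without pair 11/12 or 43/44 nor Srsf6 without pair 43/44.

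The called genes of cell cycle, biosynthesis and matrix changed by less than 2-fold. Their counts stand beside 7.01% called higher and 13.9% called lower of all genes tested. Of 21 genes of G1 to S and DNA replication 4 fell and limma called 0 as higher (0 at an unadjusted p under 0.05; median -0.051). They were Ccne1, cyclin E1 (-0.64 ± 0.08), Ccnd2 (-0.23 ± 0.05), the replication licensing inhibitor Gmnn (-0.27 ± 0.06) and Cdk2 (-0.23 ± 0.05). Without pair 11/12, 13/14, 31/32 or 43/44 only Ccne1 of these was called. Cdk2 was not called without any 1 of the pairs, and it stood at 0.08 with the mean of its 2 probe sets. Among 20 genes of G2 and M phase, Aurka (0.49 ± 0.05), Cenpf (0.32 ± 0.05) and Nek2 (0.25 ± 0.05) rose and Mad2l1 (-0.27 ± 0.05) fell. Aurka had 1 of 2 probe sets and Nek2 1 of 4 of the opposite sign. Nek2 and Mad2l1 were not called without pair 5/6, 11/12, 13/14 or 31/32. Of 16 ribosome biogenesis genes Nop56 (-0.46 ± 0.08), Polr1b (-0.36 ± 0.06) and Nop2 (-0.31 ± 0.05) fell. Of 16 genes of glycolysis and hypoxia Pfkp rose (0.33 ± 0.06) and Pfkfb3 (-0.91 ± 0.13), Hk2 (-0.66 ± 0.07) and the glucose transporter Slc2a1 (-0.45 ± 0.08) fell. Without pair 11/12 neither Polr1b nor Slc2a1 was called.

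In the matrix list of 21 genes, the basement membrane collagens Col4a1 (0.29 ± 0.06) and Col4a2 (0.38 ± 0.09), Col6a3 (0.22 ± 0.05) and tenascin C, Tnc (0.34 ± 0.05), rose, and Col8a1 (-0.81 ± 0.07) and Thbs1, thrombospondin (-0.50 ± 0.06), fell. The counts here also stand beside 7.01% called higher and 13.9% called lower of all genes tested. The 4 rises were 0 without pair 11/12, 1 without pair 5/6 and 2 without each of the others, whereas Col8a1 and Thbs1 stayed called without each pair. Col6a3 was not called without any 1 of the pairs. Of 10 fibroblast markers Pdgfrb fell (-0.77 ± 0.11, adjusted p = 0.00874) and the other 9 were not called, Vim at 0.01 ± 0.04 and Col1a1 at 0.07 ± 0.05 among them. Of 7 interferon-stimulated genes Ifit2 fell (-0.53 ± 0.09) and of 7 histone genes H2aw (-0.70 ± 0.15) and H2ax (-0.57 ± 0.08) fell, H2aw being called only with all pairs or without pair 43/44. Both heat shock factor genes on the list and tested, Hsf2 (0.55 ± 0.18) and the binding protein gene Hsbp1 (0.05 ± 0.05), were not called.

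How far the response was shared was asked of the pairs directly. Over the 10916 genes, the changes of any 2 pairs had a Pearson correlation of 0.396 to 0.480. Pairs of 1 line gave 0.396 to 0.474 and pairs of different lines 0.417 to 0.480, so a pair resembled pairs of the other line about as much as those of its own. Different pairs share no array, though genes are not independent replicates and quantile normalization is common to all. The mean change of the 3 KO-labelled pairs and that of the 2 rescue-labelled pairs had r = 0.650 and rho = 0.612 over the genes tested, and both had the same sign in 2283 of 2283 called genes, a count that calling on the pooled pairs favours. In 168 called genes both line means were past 2-fold.

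**Figure D4:**
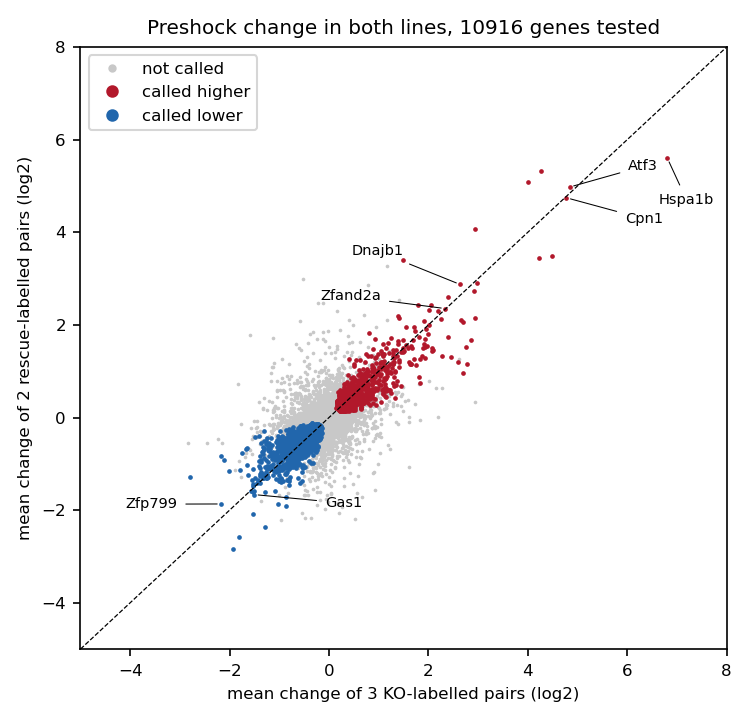
Mean change of the 3 KO-labelled pairs (horizontal axis) against that of the 2 rescue-labelled pairs (vertical axis), log2 preshocked minus unheated, for 10916 genes, red called higher and blue called lower in the common fit, grey not called, with the dashed line of equal change. Called genes run along the dashed line, and Zfand2a and Atf3 lie next to it.

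The difference of the responses, rescue minus KO-labelled, was fitted with pair as a block, and limma called 0 of 10916 genes (0%, against 546 at an unadjusted p under 0.05). With 3 and 2 pairs the interval of each difference is wide. That of Hspa1b was -1.21 ± 0.46 log2, a smaller rise in the rescue-labelled pairs from a higher unheated level, with adjusted p = 0.911. Dnajb1 differed by 0.23 ± 0.14, Zfand2a by 0.01 ± 0.09, Atf3 by 0.13 ± 0.60, Pgf by -0.78 ± 0.39 and Gas1 by -0.16 ± 0.20, none of them called, which does not show that the lines respond alike. The smallest p-values of the difference belonged to Gm17753 (2.20 ± 0.21), Peli2 (-1.22 ± 0.13), Slc40a1, the iron exporter ferroportin (1.78 ± 0.19), C2cd4c (1.24 ± 0.14) and Cfc1 (1.19 ± 0.16), each with adjusted p = 0.826. None of these 5 was called in the common response. Slc40a1 had preshocked intensities of 62.9, 41.0 and 42.4 in the KO-labelled arrays, below the unheated 113, 89.2 and 85.9, and 129.6 and 166 in the rescue-labelled arrays, above the unheated 57.8 and 109.9.

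Fitting each line within the same model, which was added after the common values were seen, called 999 genes in the KO-labelled and 164 in the rescue-labelled pairs, which differ in number of pairs. Of these, 148 were called in both with the same sign, 75 higher and 73 lower, which is 14.8% of the KO-labelled and 90.2% of the rescue-labelled calls. The common fit called 1354 genes that neither line's own fit called, 777 that were called in KO-labelled pairs alone and 4 in rescue-labelled pairs alone. Zfand2a and Dnajb1 had line means of 2.34 and 2.64 log2 in the KO-labelled and 2.35 and 2.87 in the rescue-labelled pairs.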

How the data were processed

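RNA of 10 samples of mouse embryonic fibroblasts was hybridised to Affymetrix arrays. The intensity of each probe set was used as deposited by the authors, on a linear scale, and the sources used here name no software for its summary. Without the top and bottom 2% of probe sets, each array's mean was 500.003 to 500.004. Array numbers and treatments come from the labels. Pairs were taken by consecutive numbers, and residuals from the group means of adjoining KO-labelled arrays correlated with r of 0.376 to 0.721, each array best with its adjoining number. The rescue-labelled groups of 2 arrays give a single value, 0.370, of which only the sign bears on the pairing. The labels do not say what a number marks.

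Values below 1 were set to 1 (4935 values), log2 transformed and quantile normalized, because the array medians of log2 values differed by 1.08. Gene symbols came from GEO's platform annotation, which can be old. Of 45101 probe sets 64 were controls, 34945 had 1 symbol, 932 several and 9160 none. The brightest probe set stood for each of 18193 genes, and the 60% with the highest mean, 10916 genes, were tested with limma 3.58.1 in R 4.3.3, with pair as a fixed block and Benjamini-Hochberg adjustment over all of them. A probe set was not compared with another for level, and saturation and detection calls were not used here.

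Genes named were the 15 largest rises and 15 largest falls called with the same sign in all 5 pairs, up to 5 called members of each of 42 lists by adjusted p, the 5 smallest p-values of the difference between lines, and the tested Hsp70 and Hsp110 genes, 162 in all. Further members of the lists are given to describe each list and were chosen after their values were seen. The members and lists were chosen with earlier results of these data known. The lists hold 656 genes, of which 612 were on the arrays and 534 were tested. Promoter windows of RefSeq (GRCm38.p6) were matched by Entrez gene identifier for 8897 of the 10916 genes. The fits were tested on simulated data. Alternatives changed the block, normalization, floor, filter, probe set rule, variance moderation, weight of the lines, motif and window, and left out each pair in turn.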

Additional observations from a re-analysis of the deposited data

Results flagged for a closer look

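In 12 of the 162 named genes (7.41%) the difference of 1 pair lay far from the other 4 by Dixon's criterion for 5 values, 0.71, which chance alone meets in about 1 in 20 groups. No cause was tested.

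Pair 5/6 stood apart in 4 genes. The rise of Dnaja4 was 5.62 log2 there against 3.14 to 3.81 in the others, that of Dusp5 2.21 against 1.25 to 1.49 and that of Cryab 1.15 against 0.65 to 0.79, while the replication inhibitor Gmnn stood at -0.04 against -0.36 to -0.29. Both arrays of pair 5/6 also had the highest medians before normalization. In pair 11/12 Grpel2, the mitochondrial exchange factor, stood at -0.72 against -0.35 to -0.22, and in pair 13/14 Ubqln1 rose by 0.35 against 0.50 to 0.53.

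In pair 31/32 cyclin E1, Ccne1, stood at -0.34 against -0.80 to -0.67, Mmp14 at -0.27 against -0.18 to -0.16 and Tnc at 0.17 against 0.34 to 0.40. In pair 43/44 Ifit2 stood at -0.88 against -0.50 to -0.39, Fgf7 at -0.38 against -0.72 to -0.62 and Insig1 at -0.19 against -0.33 to -0.30. Every one of these 12 genes kept its sign in all 5 pairs.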

How the results depend on the processing

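With the pair as a fixed replicate block, 765 genes were called higher and 1518 lower, and 99 and 64 of the list genes. Without the replicate block these counts were 257 and 425, and 61 and 23, with line as a covariate, and 192 and 293, and 54 and 16, with no line term. As a random block they were 898 and 1764. Without the filter on dim genes they were 312 and 506, and 65 and 26. With the mean of all probe sets 530 were higher and 741 lower, with 39 list genes lower, and Cdk2 (0.078), Nfe2l2 (0.88) and Dnaja3 (0.091) turned from lower to higher. Leaving out 1 pair gave 389 to 625 higher and 774 to 1239 lower, and 35 to 52 list genes lower, lowest without pair 11/12. The deposited scaling gave 715 higher and 1980 lower, so that 26.5% of calls were higher in place of 33.5%. The 3 Hspa1b probe sets, fitted over all probe sets, gave 7.72, 7.17 and 6.20 with lines weighted equally, and 7.51 to 8.13, 7.02 to 7.50 and 6.00 to 6.56 without 1 pair, past the threshold in none of these. With 2 in place of 3 heat shock units the shares of genes with a match were 13.6% (called higher), 12.8% (called lower) and 13.7% (tested). The difference between lines called 0 genes in limma under each setting run (546 at an unadjusted p under 0.05 in the fit reported). Causes were not tested. The depth of an array is fixed by its design, and 5 pairs with 4 residual degrees of freedom limit the precision.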

Other observations

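Zinc finger genes with a Zfp symbol, mostly of the C2H2 type that binds DNA, were looked at as a family after 6 of them were seen among the 15 largest falls, so their counts are a description with no test. Of 247 tested, 86 were lower (34.8%) and 21 higher (8.5%), beside 13.9% and 7.01% of all genes tested, and the median was -0.31 log2 against -0.038. In 101 of them all 5 pairs were lower and in 27 all 5 were higher. Zfp229 (-1.32 ± 0.11) and Zfp407 (-1.29 ± 0.10) were among the 16 that fell at least 2-fold. The counts of lower and higher members were 80 and 15 with median centring, 105 and 15 with the deposited scaling, 41 and 13 with the mean of all probe sets, 28 and 10 of 329 without the filter on dim genes, and 25 and 4 without the pair block, with line as a covariate. Leaving out 1 pair gave 43 to 70 lower and 13 to 19 higher, with the lowest count of falls without pair 11/12. Among the brightest 40% of genes, 38 of 92 were lower and 21 higher, with a median of -0.11. In that setting 1440 of all 7277 genes were lower and 831 higher, so rises as well as falls were more frequent among the Zfp genes. The shares of all genes given first belong to the main fit.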
